A study of Mus musculus with 2 samples.

Results

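The genes described are the 8 loci annotated for the muscle microRNAs miR-1, miR-206 and miR-133: Mir1a-1, Mir1a-2, Mir1b, Mir206, Mir133a-1, Mir133a-2, Mir133b and Mir133c. They were chosen by gene symbol, and all 8 were found among the 2202 miRNA genes of the deposited tables. The tables come from microRNA sequencing of heart tissue of male B6CASTF1/J mice, the first-generation cross of C57BL/6J and CAST/EiJ, at 4 days of age. There are 2 libraries, biological replicates 1 and 2, in a single group with no treatment named. The labels number the animals as separate males but give both the same donor identifier. If they were not separate animals, the spread between the libraries is technical. Whole heart tissue was used, so cardiomyocytes, vessel cells, fibroblasts and blood cells all contribute RNA, and fewer cells of a type cannot be told apart from less RNA per cell.

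MicroRNAs are short RNAs cut from hairpin precursors that guide silencing proteins to messenger RNAs, mainly through the seed, the bases from position 2 to 8. miR-1 and miR-133 are made together from paired loci in heart and skeletal muscle. There miR-1 favours differentiation, and in the heart miR-133 restrains smooth muscle genes and proliferation. miR-206 has the seed of miR-1, is known above all from skeletal muscle, and lies beside Mir133b. In the hairpins of Mir1a-1, Mir1a-2, Mir206, Mir133a-1, Mir133a-2 and Mir133b the strand that mainly enters silencing complexes comes from the 3′ arm. Because copies of miR-1 and miR-133 are encoded at several loci, a read of the mature RNA can match more than 1 place in the genome.

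The mature arms of Mir206 and Mir133b and the 5′ arm of Mir1a-1 are printed here because they decide which reads can be assigned to 1 locus. Sequences are from RefSeq (GRCm38.p6), 5′ to 3′, with the seed in capitals. The RefSeq table matched 3 of the 8 members, and the Mir206 and Mir133b hairpins in it equal the annotated GENCODE hairpins.
mmu-miR-206-3p: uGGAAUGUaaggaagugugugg
mmu-miR-133b-3p: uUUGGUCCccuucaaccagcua
mmu-miR-206-5p: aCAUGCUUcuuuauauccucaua
mmu-miR-133b-5p: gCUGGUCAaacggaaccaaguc
mmu-miR-1a-1-5p: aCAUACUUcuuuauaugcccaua

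The whole Mir206 hairpin shows where these arms lie, with both arms in capitals.
Mir206: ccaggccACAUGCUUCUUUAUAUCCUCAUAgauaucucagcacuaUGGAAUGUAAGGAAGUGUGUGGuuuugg
The 3′ arm begins at base 46 of the 73-base hairpin. Neither arm of Mir206 was found in any other annotated miRNA hairpin. Its 3′ arm shares its first 10 bases, seed included, with the hairpins of Mir1a-1 and Mir1a-2 and then departs from them. That seed occurs somewhere in 13 of the 2202 hairpins (0.590%). The hairpin of Mir1b, read on its own strand, is not among them.

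The Mir133b hairpin is printed for the opposite reason, since most of its 3′ arm recurs at other loci.
Mir133b: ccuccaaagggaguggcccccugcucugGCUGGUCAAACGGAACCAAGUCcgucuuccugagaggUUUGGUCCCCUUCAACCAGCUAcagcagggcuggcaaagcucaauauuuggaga
The first 21 of the 22 bases of miR-133b-3p were found in the hairpins of both Mir133a-1 and Mir133a-2, so only its last base sets it apart from them. Its 5′ arm shares no run over 8 bases with either. The hairpin of Mir133c holds the first 15 bases of miR-133b-3p.

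The 5′ arms of Mir206 and Mir1a-1 are of equal length and differ at 3 of 23 positions, which are in capitals below. Counted from the 5′ end, with the base of miR-206-5p first, the substitutions are G5A, C17G and U19C.
mmu-miR-206-5p: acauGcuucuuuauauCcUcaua
mmu-miR-1a-1-5p: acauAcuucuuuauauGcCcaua
The substitution at position 5 lies within the seed. A read of a 5′ arm can therefore separate these genes, although the 5′ arm is usually the less abundant product.

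All 8 hairpins were searched for windows of 20 bases that recur, on either strand, in an annotated miRNA hairpin at another locus. Such windows were found in 6 members, compared with 49.4% of all 2202 hairpins. Mir206 and Mir133c had none. Mir1a-1 shared 9 of its 58 windows with Mir1a-2, in a stretch of 28 bases from base 45 to 72, toward the 3′ end of the 77-base hairpin. Its 5′ arm, from base 10 to 32, lay outside that stretch. Mir133a-1 shared 17 of 49 windows and Mir133a-2 17 of 85. Their shared sequence fell in a stretch of 24 bases nearer the 5′ end and one of 31 bases toward the 3′ end. Mir133b shared only 2 of 100 windows, both in its 3′ arm, and none when windows of 22 bases were used. No member lacked windows of its own, which was the case for 13.7% of all hairpins. Copies outside annotated miRNA genes were not searched.

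**Figure D1:**
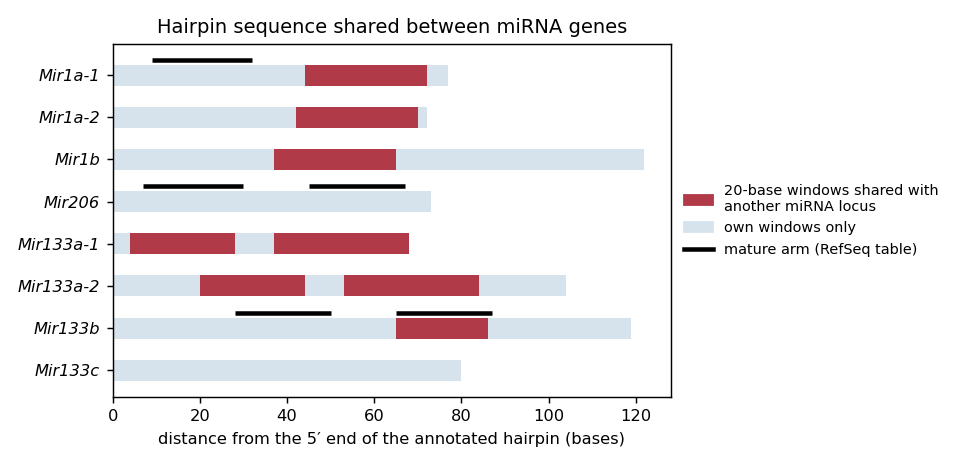
Annotated hairpins of the 8 genes drawn to scale by distance from their 5′ end in bases. Red stretches are covered by 20-base windows that recur in a miRNA hairpin at another locus, pale bars are the rest of the hairpin, and black lines mark mature arms listed by RefSeq. Red covers the 3′ part of Mir1a-1, Mir1a-2, Mir133a-1 and Mir133a-2 and all but the last base of the Mir133b 3′ arm. It also covers a stretch nearer the 5′ end of Mir133a-1 and Mir133a-2 and bases 38 to 65 of Mir1b. Red is absent from Mir206 and Mir133c.

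The loci fall into paired units (mm10, GENCODE M21). Mir206 (chromosome 1, 20679010 to 20679082, plus strand) and Mir133b (20682769 to 20682887) lie 3686 bases apart and overlap exons of the lincRNA gene Gm28653 on the same strand. Mir1a-1 (chromosome 2, 180389048 to 180389124, plus strand) and Mir133a-2 (180398379 to 180398482) lie 9254 bases apart and overlap no other annotated gene. Mir133a-1 (chromosome 18, 10782909 to 10782976, minus strand) and Mir1a-2 (10785481 to 10785552) lie 2504 bases apart in introns of the host transcript Mir133a-1hg, opposite an intron of the ubiquitin ligase gene Mib1. Mir1b (chromosome 18, 10785446 to 10785567, plus strand) lies in an intron of Mib1 on the strand of that gene and covers all 72 bases of Mir1a-2 on the other strand. Mir133c (chromosome 2, 29475215 to 29475294, minus strand) stands alone, opposite an intron of Med27, a gene of the Mediator complex.

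Values below are sense counts, the reads on a gene's own strand, from libraries of 4196577 sense counts in replicate 1 and 3801738 in replicate 2. CPM are counts scaled to these totals, and errors are SDs over the libraries (n = 2). Multi-mapped reads, 3657699 and 3929811 in replicates 1 and 2, are in no gene's count. They outnumbered the summed counts of the 8 genes by 11649-fold and 9679-fold, and the tables do not say which genes they match. The counts of Mir1a-1, Mir1a-2, Mir133a-1, Mir133a-2 and Mir133b thus leave out any of their reads that match more than 1 place. They are lower limits of those miRNAs only if no read was placed at the wrong copy, which was not tested. A gene with 0 counts may hold up to 3 reads, which is 0.715 CPM in replicate 1 and 0.789 CPM in replicate 2. Intervals and this limit cover counting error only.

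The miR-1 genes were read almost entirely from Mir1a-2. Mir1a-2 had 139 sense counts in replicate 1 and 207 in replicate 2, or 33.1 and 54.4 CPM (43.8 ± 15.1). Mir1a-1, the other copy, had 10 and 13 counts, or 2.38 and 3.42 CPM (2.90 ± 0.733). Mir1a-2 was far above its copy in both libraries, and the ranges do not meet. Within a library it had 13.9-fold (95% exact interval 7.34 to 29.6) and 15.9-fold (9.11 to 30.4) the reads of Mir1a-1. The log2 ratio was 3.90 ± 0.14, a distance from 0 much larger than the spread between the libraries. A read that lies wholly within the 28-base shared stretch matches both hairpins, so this ratio describes reads that reach into each copy's own sequence.

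Mir1b, the annotated gene opposite Mir1a-2, had 4 sense counts in replicate 1 and 0 in replicate 2. On its other strand lay 139 and 207 reads, which are the reads of Mir1a-2. The strand of Mir1a-2 thus held 97.2% of the reads over the shared hairpin in replicate 1 (95% exact interval 93.0 to 99.2) and 100% in replicate 2 (98.2 to 100). Nearly all reads at this position were of the Mir1a-2 strand in both libraries. When strand is ignored, every one of these reads becomes ambiguous, and both genes are listed with 0 counts. The other 5 detected members had no read on the opposite strand in either library, and their counts were the same with and without strand.

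Mir206, whose mature arms are its own, had 123 counts in replicate 1 and 145 in replicate 2, or 29.3 and 38.1 CPM (33.7 ± 6.24). It lay a little below Mir1a-2 in both libraries. Set against both Mir1a genes together, Mir206 had 0.826-fold (95% exact interval 0.645 to 1.06) and 0.659-fold (0.531 to 0.817) their reads. The interval includes 1 in replicate 1 and lies below it in replicate 2. This ratio sets reads of the whole Mir206 hairpin beside reads of only part of each Mir1a hairpin, and so does not give the ratio of mature miR-206 to miR-1.

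The miR-133 genes had few assigned reads. Mir133a-1 had 11 counts in replicate 1 and 29 in replicate 2, or 2.62 and 7.63 CPM (5.12 ± 3.54). Mir133a-2 had 7 and 5 counts, or 1.67 and 1.32 CPM (1.49 ± 0.249). Mir133a-1 stood above its copy in both libraries, clearly so only in replicate 2. The ratio of Mir133a-1 to Mir133a-2 was 1.57 (95% exact interval 0.556 to 4.78) and 5.80 (2.22 to 19.2), a log2 ratio of 1.59 ± 1.33. A read that lies wholly within either of their shared stretches, of 24 and 31 bases, matches both hairpins. This ratio thus describes reads that reach into each copy's own sequence. Mir133b had 20 and 7 counts, or 4.77 and 1.84 CPM (3.30 ± 2.07) with the higher value in replicate 1. Mir133c had 0 counts in both libraries on either strand.

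**Figure D2:**
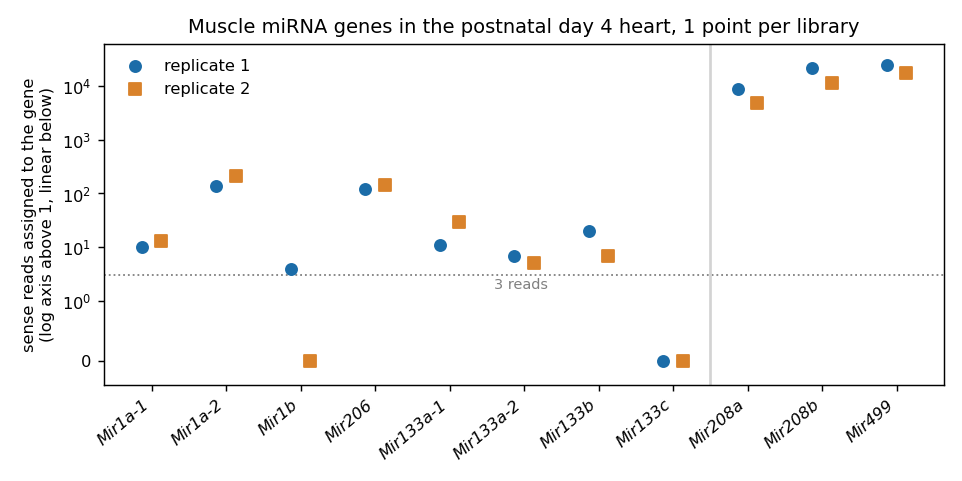
Sense reads assigned to each of the 8 genes, left of the vertical line, and to the 3 myosin-intron miRNA genes, right of it, with 1 point per library on an axis that is logarithmic above 1 and linear below. The dotted line marks 3 reads, the limit that a count of 0 allows. Mir1a-2 and Mir206 lie between 123 and 207 reads, the miR-133 genes and Mir1a-1 at 29 or fewer, and the myosin-intron genes between 4788 and 24317.

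Neighbours were read unequally at the chromosome 18 and chromosome 1 loci. At the chromosome 18 locus Mir1a-2 had 12.6-fold (95% exact interval 6.85 to 25.9) and 7.14-fold (4.82 to 10.9) the reads of Mir133a-1, a log2 ratio of 3.25 ± 0.58. At the chromosome 1 locus Mir206 had 6.15-fold (3.81 to 10.4) and 20.7-fold (9.80 to 52.4) the reads of Mir133b, a log2 ratio of 3.50 ± 1.24. Both intervals of each pair exclude 1. At the chromosome 2 locus Mir1a-1 had 1.43-fold (0.491 to 4.42) and 2.60-fold (0.870 to 9.31) the reads of Mir133a-2, and both intervals include 1. The share of a hairpin's windows that are its own was 83.0% for Mir1a-2 and 65.3% for Mir133a-1, 100% for Mir206 and 98.0% for Mir133b, and 84.5% for Mir1a-1 and 80.0% for Mir133a-2. These shares count the whole hairpin and not its mature arms. The shared windows of Mir133b cover 21 of the 22 bases of its 3′ arm, while Mir206 shares none. The part of shared sequence in the ratios was not tested.

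The ratio of Mir133b to both Mir133a genes together was not stable between the libraries. It was 1.11 in replicate 1 (95% exact interval 0.558 to 2.23) and 0.206 in replicate 2 (0.0770 to 0.472). The intervals do not overlap, and the log2 ratio of -1.06 ± 1.72 is smaller than its spread.

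**Figure D3:**
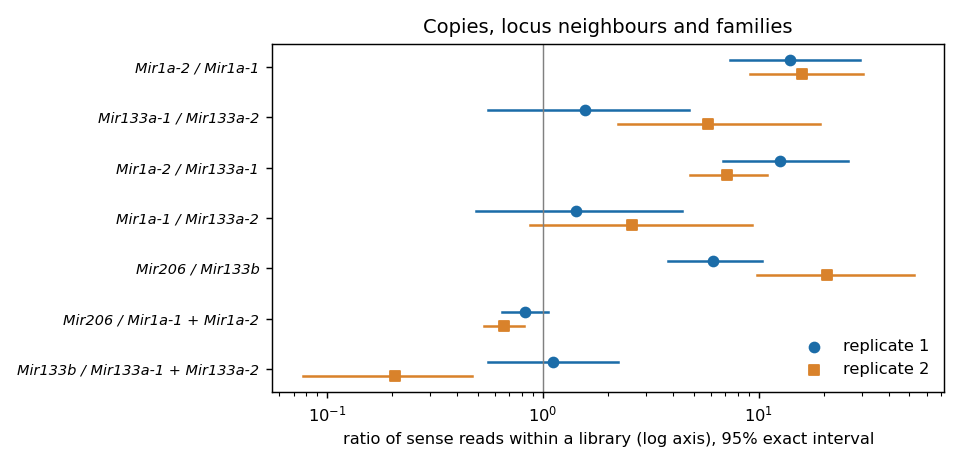
Ratios of sense reads of 2 genes, or of a gene to the sum of a pair, within each library on a log axis, with 95% exact intervals that cover counting error only. The vertical line marks equal reads. Mir1a-2 over Mir1a-1 is nearly the same in both libraries at 13.9 and 15.9, while Mir133b over the Mir133a genes falls on the line in replicate 1 and left of it in replicate 2.

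As a second order of levels between genes, CPM were divided by hairpin length. The annotated hairpins ran from 68 bases (Mir133a-1) to 122 (Mir1b), while the mature arms printed above have 22 or 23. Hairpin length therefore need not set the number of reads. Without this scaling Mir133b (3.30 ± 2.07 CPM) lay above Mir1a-1 (2.90 ± 0.733 CPM), within their spread. Per 100 bases of hairpin, Mir1a-2 averaged 60.8 ± 20.9 CPM and Mir206 46.2 ± 8.55 CPM, a difference within their spread. Mir133a-1 followed at 7.54 ± 5.21 CPM, below Mir206 in both libraries. Mir1a-1 at 3.77 ± 0.952 CPM, Mir133b at 2.78 ± 1.74 CPM and Mir133a-2 at 1.43 ± 0.240 CPM came next, and each overlapped its neighbour in this order across the libraries. Mir1b was last of the detected genes at 0.391 ± 0.552 CPM.

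Among all 441 miRNA genes with 10 or more counts over both libraries, Mir1a-2 ranked 211 and Mir206 223 by mean CPM without length scaling. Only Mir1a-2 lay above the median of these genes, which was 35.0 CPM. These ranks rest on uniquely placed reads. Reads wholly within the shared stretches of the Mir1a, Mir133a and Mir133b hairpins are left out, so the ranks need not be those of the mature miRNAs. The genes next to Mir1a-2 were Mir222 above (44.1 ± 0.430 CPM) and Mir200b below (42.6 ± 32.4 CPM). Mir206 stood between Mir669e (33.8 ± 32.2 CPM) and Mir543 (33.6 ± 15.5 CPM). Mir133a-1 ranked 316, between Mir615 and Mir3061, and Mir133b 345, between Mir3066 and Mir29b-2. Mir1a-1 ranked 355, between Mir6945 and Mir7073, and Mir133a-2 411, between Mir6989 and Mir292. All of these neighbours lay within the SDs of the members beside them. Of the 8 members 6 reached the minimum of 10 counts, Mir1b fell short of it with 4 counts and Mir133c had none.

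Together the 8 genes took 74.8 CPM in replicate 1, with a 95% Wilson interval of 67.0 to 83.6 CPM. In replicate 2 they took 107 CPM (96.9 to 118), and the mean was 90.8 ± 22.6 CPM. The 4 genes of miR-1 and miR-206 gave 80.9 ± 21.4 CPM of this and the 4 miR-133 genes 9.92 ± 1.22 CPM. Mir1a-2 made up 47.6% ± 4.75 of the members' reads and Mir206 37.4% ± 2.44. The other striated muscle miRNA genes, Mir208a, Mir208b and Mir499, lie in introns of cardiac myosin heavy chain genes and share no 20-base window with another hairpin. These 3 genes took 13054 and 8858 CPM. Of the reads of both lists, the members held 0.570% (95% Wilson interval 0.510 to 0.636) in the first library and 1.19% (1.08 to 1.31) in the second. That share rests on uniquely placed reads and leaves out the shared stretches of the miR-1 and miR-133 hairpins.

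Across the series, shared windows and shared arms were set beside the counts. Of the 1115 hairpins whose 20-base windows are all their own, 31.2% had 10 or more counts, compared with 11.5% of the 786 that share some windows and 0.997% of the 301 with no window of their own. The genes that reached 10 counts numbered 348, 90 and 3 in these classes, so the last median rests on 3 genes. Their median level was 33.6 CPM, 50.9 CPM and 2.95 CPM, so the order of the levels was not that of the shares. Among genes with a RefSeq arm, 49 of the 110 with an arm found in another hairpin reached 10 counts (44.5%), with a median of 33.2 CPM, beside 342 of 908 with no such arm (37.7%), with a median of 37.6 CPM. These are descriptions of genes that differ in many ways, and no test was made.

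The libraries were then compared gene by gene over the whole table with Fisher's exact test (two-sided, Benjamini-Hochberg adjustment over 441 genes). This compares 2 libraries and not conditions, and counting is its only error. An adjusted p under 0.05 was reached by 2 of the 6 tested members, both higher in replicate 2, and by 56.9% of all tested genes (20.4% higher and 36.5% lower in replicate 2). With 6 genes tested, nothing was read from the members' share against that background. Mir1a-2 had 33.1 CPM in replicate 1 and 54.4 CPM in replicate 2, a log2 ratio of 0.70 (95% exact interval 0.40 to 1.04, adjusted p = 1.44e-05, Fisher's exact test). Its locus neighbour Mir133a-1 had a log2 ratio of 1.25 (0.50 to 2.69, adjusted p = 0.00461, Fisher's exact test). Log2 ratios are of CPM + 1 and the intervals of CPM without it.

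The remaining tested members did not pass. Mir206 had a log2 ratio of 0.37 and Mir133b of -1.02, each with an adjusted p of 0.0562 in Fisher's exact test. Mir1a-1 had 0.39 (adjusted p = 0.509) and Mir133a-2 -0.20 (adjusted p = 0.828, Fisher's exact test). The median log2 ratio was 0.38 over the 6 tested members and -0.26 over all tested genes. TMM scaling shifts ratios of CPM by 0.30, and by less on the log2(CPM + 1) scale for genes of few reads (Mir133a-2 moved from -0.20 to -0.02). With it 3 members were called, Mir206 being the addition, while calls over all genes were 135 higher and 106 lower in place of 90 and 161. edgeR's exact test, which adds the spread between the libraries estimated from the same data (biological coefficient of variation 0.377), called none of the 6 members (lowest unadjusted p = 0.0563, for Mir133a-1). It called 2 of 441 genes (0.454%), and 23 (5.22%) had an unadjusted p under 0.05. The dispersion behind it takes the difference between these 2 libraries as spread, so few calls follow from its design.

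**Figure D4:**
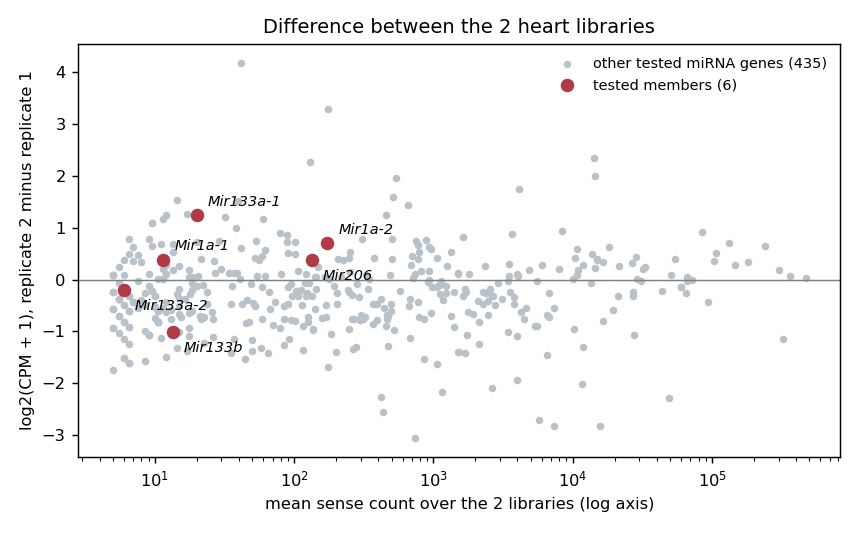
Difference in log2(CPM + 1) between replicate 2 and replicate 1 against the mean sense count on a log axis, for the 441 tested genes. Red points are the 6 tested members and grey points the other genes. The members lie between -1.02 and 1.25, among grey points of like mean count.

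The myosin-intron genes had log2 ratios of -0.73 for Mir208a, -0.80 for Mir208b and -0.32 for Mir499, against the direction of Mir1a-2 and Mir133a-1. With TMM scaling the value was -0.02 for Mir499, -0.43 for Mir208a and 1.00 for Mir1a-2. Marker lists of other cells differed between the libraries too. The endothelial gene Mir126a had 109199 and 49330 CPM in replicates 1 and 2, and the smooth muscle genes Mir143 and Mir145a, both detected, summed to 48576 and 79468 CPM. The liver gene Mir122 had 309 and 105 CPM. All 4 white blood cell genes were detected and summed to 1478 and 1542 CPM, and both red blood cell genes to 351 and 297 CPM. Of 6 neuron genes 2 were detected, at 0.238 and 22.1 CPM in all, with Mir9-2 and the 3 Mir124a genes at 0. The part of these differences in the ratios of the members was not tested.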

How the data were processed

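Small RNA of 2 heart libraries was sequenced, and the authors deposited raw read counts per miRNA gene for each, aligned to mm10 with GENCODE M21, per the text files that describe them. Which aligner was used is not given in the sources used here. Columns were read in the order of counts without strand, on the gene's strand and on the opposite strand. Mir208a, which is not part of the overlapping pair Mir1a-2 and Mir1b, had 8774 and 4788 counts on its own strand. On the opposite strand it had 0 in both replicates. The 4 summary lines that name no gene stayed out of library sizes, and multi-mapped reads were 38.1% and 42.3% of 9591115 and 9293203 reads. Loss of reads with CAST alleles in alignment was not tested. PCR reads are not independent molecules.

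CPM, exact and Wilson intervals (95%) and Fisher's exact test were computed with Python 3.11.15 and scipy 1.17.1. Fisher's exact test was also run on simulated counts that had counting error but no other spread between libraries. That run therefore does not cover the spread between the real libraries. Scaling and the exact test with a common dispersion used edgeR 4.0.16 (TMM), with DESeq2 1.42.0 size factors as an alternative. A quasi-likelihood test between the libraries was not made, since a model with each library as its own group leaves no residual degrees of freedom; the dispersion came from a fit with no group difference. Log2 ratios used a pseudocount of 1 CPM and tests a minimum of 10 counts over both libraries.

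Hairpin windows came from GENCODE M21 transcripts and printed sequences from RefSeq. The members and lists were chosen with earlier results of these data known. All 8 members are named, with the 3 myosin-intron genes and the genes next to each tested member in mean CPM.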

Additional observations from a re-analysis of the deposited data

How the results depend on the processing

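The summed level of the 8 genes, 90.8 CPM, was 38.2 on the same scale when all reads in the tables served as denominator, 60.4 CPM with counts taken without regard to strand, in which Mir1a-2 is at 0, and 123 CPM per 100 bases of hairpin. It ran from 74.8 to 107 CPM with 1 library left out. The number of members that differed between the libraries was 2 with Fisher's exact test and 3 with TMM or DESeq2 scaling. It was 0 with edgeR's exact test, whose dispersion takes in the difference tested. Without regard to strand it was again 2 of 5 tested, but these were Mir133a-1, higher in replicate 2, and Mir133b, lower (log2 ratio -1.17, adjusted p = 0.0348, Fisher's exact test). Mir1a-2, at 0 there, was not among those tested. The counts of Mir133b were unchanged, and only the library totals and the set of tested genes (414 in place of 441) differed. The part of each in its call was not tested. Mir206 had a log2 ratio of 0.66 with TMM scaling (adjusted p = 2.94e-04, Fisher's exact test); its adjusted p over the alternatives ran from 2.94e-04 to 1.00. The log2 ratio of Mir206 to both Mir1a genes was -0.44, and 3.55 without regard to strand. That of Mir133b to both Mir133a genes was -1.06, and ran from -2.28 without replicate 1 to 0.15 without replicate 2. Leaving out a library permits no comparison between libraries. Low counts limit ratios between members: that of Mir133a-1 to Mir133a-2 could lie anywhere from 0.556 to 4.78 in replicate 1 by counting error alone.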
